A study of Homo sapiens with 8 samples.

Results

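The best expressed long noncoding RNAs (lncRNAs) of PC3 cells were examined in shScramble and shIER5L samples. Genes that GENCODE v44 types as lncRNA were taken as members when their level averaged at least 10 CPM (counts per 1000000 counts of the sample) over all 8 samples. This gave 179 of the 14157 lncRNA genes in a table of 58051 genes. They were chosen by a rule on their level alone, so levels are described below without a test. The comparison of the conditions did not enter that rule, which was set with earlier results of these data known.

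PC3 is an established human prostate cancer cell line. It was transduced with lentivirus carrying either a scrambled hairpin (shScramble, 4 biological replicates) or a hairpin against IER5L, called sh2 IER5L in the study (shIER5L, 4 biological replicates), and transduced cells were kept under puromycin selection. The study asked how its transcriptome responds to the loss of IER5L, an immediate early response gene. All samples therefore shared the line, the vector and the drug, and all 4 shIER5L samples carried the same single hairpin, so that loss of IER5L and any other action of that hairpin cannot be told apart in them. The targeted mRNA fell in the fit used here, at -1.08 ± 0.248 on the log2 scale (± standard error, SE, of the fitted change; adjusted p = 0.0212 by edgeR's quasi-likelihood test). The call was lost, with adjusted p up to 0.0937, when shIER5L replicate 3, shScramble replicate 2 or shScramble replicate 3 was removed.

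Long noncoding RNAs are transcripts made by RNA polymerase II, usually spliced, that do not encode a known protein. Some act as RNA in the nucleus, as MALAT1 does in nuclear speckles and NEAT1 in paraspeckles, which it scaffolds. Others act in the cytoplasm, as NORAD does by binding the Pumilio proteins, and many serve as precursors: small nucleolar RNAs (snoRNAs), which guide the modification of ribosomal RNA, and microRNAs (miRNAs) are cut from the introns or exons of host genes. A further group starts beside a protein-coding gene and runs away from it on the other strand.

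The total count per sample ran from 21512128 to 24662190, and the members received between 0.935% and 1.06% of it. The sample records name a poly(A) selection kit and the paper a ribosomal depletion kit. RN7SK, RN7SL1, RMRP, RPPH1 and SCARNA2, small RNAs without a poly(A) tail, were listed at 0 counts in every sample, whereas RN7SL2 averaged 453 CPM. The epithelial keratin KRT18 (402 CPM) and VIM (537 CPM) were high and KLK3 was listed at 0. PTPRC of leukocytes (0.04 CPM) and COL1A1 of fibroblasts (0.27 CPM) were near 0, CHGA of neuroendocrine cells was listed at 0, and the endothelial marker PECAM1 was at 9.03 CPM.

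Reads were counted without regard to strand, and a read that touched exons of more than 1 gene was dropped. Of the 179 lncRNAs, 91 had exon bases that also belong to a gene on the other strand, and in 19 of them this was over 20% of the exon length. The highest share was in DNAAF3-AS1, with 54.7%. On the same strand, 42 shared exon bases with another gene, mostly the snoRNAs they host or a neighbouring transcript. Exons of 117 lay at least in part inside the span of another gene, where unspliced reads of that gene would be counted for the lncRNA, and those of 32 lay there entirely. No exon overlap on the other strand and no exon inside another gene was found for 58.

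The levels were steep. MALAT1, NORAD and NEAT1 together held 40.6% of the summed CPM of the 179 lncRNAs, and the top 10 held 56.7%. The median member had 18.0 CPM. Only 13 reached 100 CPM, 36 were between 30 and 100 CPM and 130 were lower. The 3 nearest above the minimum were ZNF213-AS1 (10.1 CPM), ARRDC1-AS1 (10.2 CPM) and TMCC1-DT (10.4 CPM), and the nearest below it were EIF3J-DT (9.95 CPM), ALDH1A3-AS1 (9.94 CPM) and ERCC6L2-AS1 (9.92 CPM), so the boundary runs through genes that differ by less than their own spread over samples. In at least 1 sample, 28 members were under 10 CPM.

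Levels of different genes were compared per length, as TPM (transcripts per 1000000, computed from the counts and the exon length in the table). The median TPM was 25.4, against 41.9 for the 8802 protein-coding genes with the same minimum of 10 CPM, and 55 of the lncRNAs were at or above that protein-coding median. MALAT1, the speckle RNA, led with 1260 TPM, although reads in the 22.7% of its exon bases shared with annotated genes on the other strand were not counted. NORAD followed with 520 TPM, then LNCAROD (381 TPM), a lncRNA first described as an activator of DKK1, SNHG16 (356 TPM), FAM131B-AS2 (355 TPM), SNHG8 (303 TPM), SNHG1 (256 TPM), SNHG29 (224 TPM), LINC02582 (207 TPM) and FGD5-AS1 (167 TPM). Hosts of snoRNAs were thus 4 of the top 10. NEAT1 ranked 18 by TPM, with 103 TPM over an annotated exon length of 22767 bases, and GAS5, a snoRNA host tied to growth arrest, was at 130 TPM. The lowest TPM were in the longest annotated genes: HELLPAR, whose exon length is 205012 bases, had 0.449 TPM, and the imprinted KCNQ1OT1 had 1.21 TPM over 91667 bases.

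**Figure D1:**
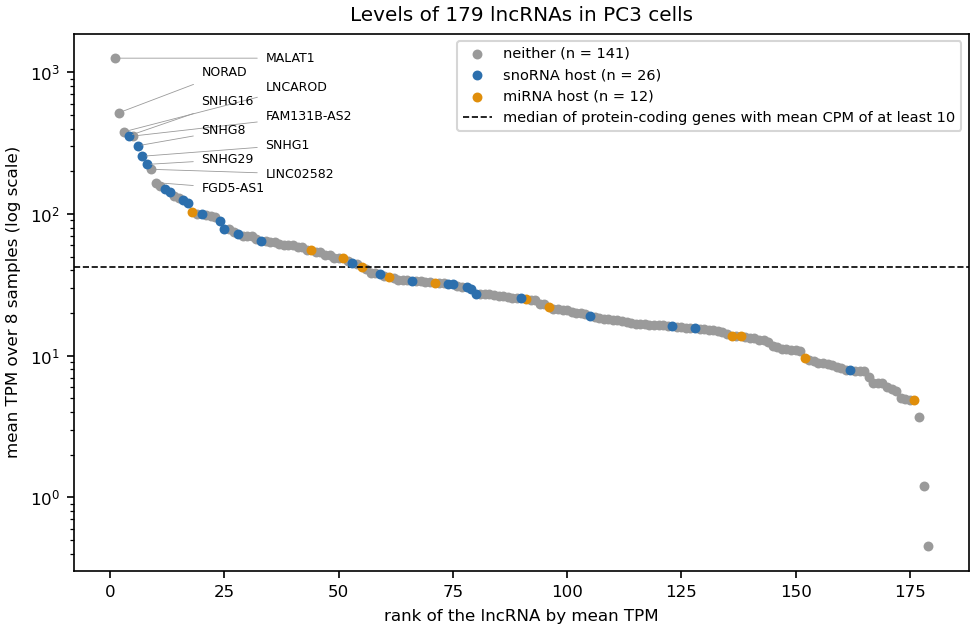
Mean TPM over the 8 samples (log scale) of each of the 179 lncRNAs, ranked from highest to lowest, with hosts of snoRNAs and hosts of miRNAs coloured and the top 10 named. The dashed line is the median of protein-coding genes with a mean of at least 10 CPM, 41.9 TPM, and 55 of the lncRNAs lie at or above it.

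Replicates repeated closely at these levels. The coefficient of variation of the TMM-scaled CPM had a median over members of 7.04% among shScramble samples and 8.04% among shIER5L samples. TMM-scaled CPM, the counts divided by library sizes corrected with edgeR's TMM factors, are used from here on for values within a gene. Values of single samples are given in the order of the replicate numbers. MALAT1 had 3227, 2681, 2675 and 3027 CPM across the shScramble samples and 2616, 2668, 2869 and 2594 across the shIER5L samples. The conditions overlapped, and its log2 fold change of -0.11 (SE 0.0563) missed the threshold (adjusted p = 0.348).

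Next, both conditions were set against each other with edgeR's quasi-likelihood test on all 16959 genes with enough counts. All 179 lncRNAs were among them. At an adjusted p under 0.05, 7 of the 179 were called, or 3.91%, against 3.93% of all genes tested, a share close to that background. Among the 8802 protein-coding genes with at least 10 CPM the share was larger, 6.51% (367 higher and 206 lower). Those lower included OIP5-AS1, C2orf74-DT, SNHG3, LASTR and ENSG00000263731 (6 genes in all, 3.35% of the members, against 1.46% of all genes tested that were called lower) and ENSG00000232855 rose (1 gene, 0.559%, against 2.46% called higher). With a log2 fold change of at least 0.5 in absolute value as a second condition, the study's definition of a DEG, OIP5-AS1 alone remained, against 0.790% of all genes tested. The number of lncRNAs called was sensitive to single samples, from 2 without shScramble replicate 2 to 9, and it was 4 without shScramble replicate 3, shScramble replicate 4 or shIER5L replicate 3.

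**Figure D2:**
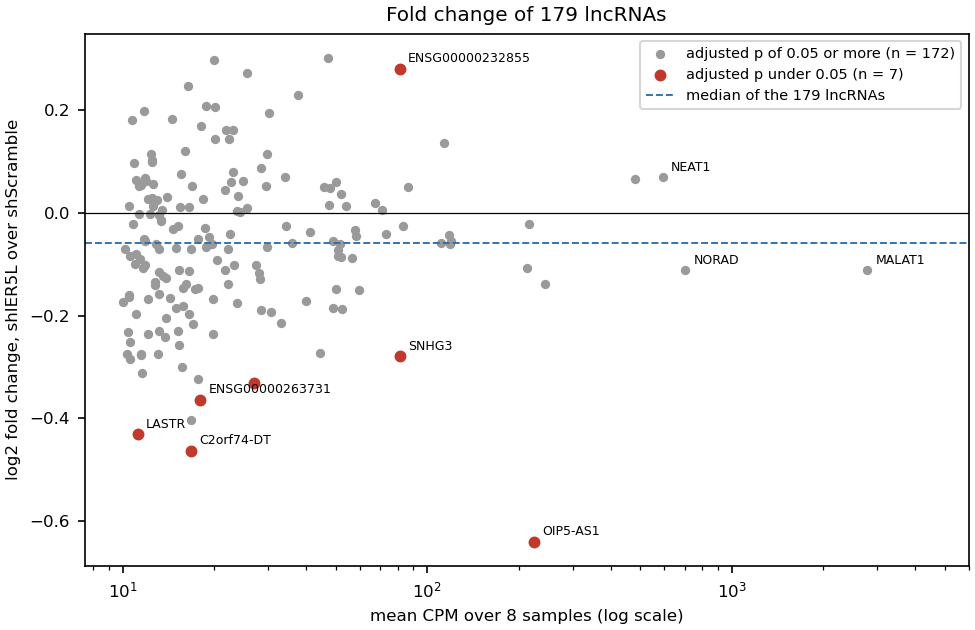
Log2 fold change of shIER5L over shScramble against the mean CPM over 8 samples (log scale) for the 179 lncRNAs, with the called genes (adjusted p under 0.05) in red. OIP5-AS1 lies at -0.64, apart from the rest, and the dashed median of the 179 lies at -0.06.

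OIP5-AS1 (ENSG00000247556), known as Cyrano, is a conserved cytoplasmic lncRNA with a site of extensive pairing to miR-7 that leads to decay of that miRNA. In hg38 it occupies 41283990 to 41309737 of chromosome 15, plus strand. Its level was 271, 276, 265 and 278 CPM across the shScramble samples and 166, 178, 182 and 174 CPM across the shIER5L samples. Every shIER5L sample lay far below every shScramble sample. The means were 272 ± 6.02 and 175 ± 6.63 CPM (SD, n = 4 each), and the fall of 0.64 on the log2 scale (SE 0.0421) had an adjusted p of 3.95e-07 by edgeR's quasi-likelihood test. With any 1 sample left out the log2 fold change stayed between -0.67 and -0.62, and the adjusted p was at most 7.60e-06. OIP5, the kinetochore gene on the other strand, shares 3.71% of the exon bases of OIP5-AS1, and its own log2 fold change was -0.04 (SE 0.0830, adjusted p = 0.882).

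C2orf74-DT (ENSG00000212978; chromosome 2, minus strand, 61141592 to 61144969) starts 99 bases from C2orf74 and runs away from it. Its values were 18.8, 20.9, 18.2 and 19.7 CPM across the shScramble samples and 13.1, 13.4, 15.4 and 14.4 CPM across the shIER5L samples. The conditions did not overlap, and the log2 fold change was -0.46 (SE 0.0862, adjusted p = 0.00584), between -0.51 and -0.42 with each sample left out and past the threshold each time. C2orf74 itself was near 1 CPM, with a log2 fold change of 0.13 (SE 0.285, adjusted p = 0.876). All exons of C2orf74-DT lie inside the span of the gene ENSG00000274769.

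SNHG3 (ENSG00000242125; chromosome 1, plus strand, 28505980 to 28510892) hosts the snoRNAs SNORA73A and SNORA73B. It had 90.1, 96.5, 80.5 and 90.4 CPM across the shScramble samples and 71.8, 72.3, 73.7 and 76.9 CPM across the shIER5L samples. Although separate, the conditions came close, at 80.5 and 76.9 CPM. SNHG3 fell by 0.28 on the log2 scale (SE 0.0577, adjusted p = 0.0117) and the call was lost without shScramble replicate 2, at an adjusted p of 0.0562. The gene lies wholly inside RCC1, which encodes the exchange factor of the GTPase Ran and is transcribed on the same strand, and 448 of its exon bases are shared with RCC1 or SNORA73A. For RCC1 the log2 fold change was -0.10 (SE 0.0421, adjusted p = 0.255).

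ENSG00000232855 (chromosome 21, minus strand, 28439346 to 28674848), a lncRNA without a symbol, was the one called higher. It had 75.5, 71.7, 73.2 and 73.4 CPM across the shScramble samples and 80.6, 88.8, 87.9 and 99.6 CPM across the shIER5L samples. Its shScramble samples lay close together and under all shIER5L samples, which spread more. The log2 fold change was 0.28 (SE 0.0604, adjusted p = 0.0143), and the adjusted p rose to 0.0580 without shScramble replicate 2 and to 0.0528 without shScramble replicate 3. No exon of another gene and no other gene's span overlaps it.

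LASTR (ENSG00000242147; chromosome 10, minus strand, 5594991 to 5596118), described as a stress-induced lncRNA that acts on the splicing factor SART3, had 11.5, 13.6, 11.7 and 14.7 CPM across the shScramble samples and 8.64, 9.16, 10.2 and 10.2 CPM across the shIER5L samples. It fell by 0.43 on the log2 scale (SE 0.108, adjusted p = 0.0340), a call lost 6 times of 8 when 1 sample was removed (adjusted p up to 0.124). ENSG00000263731 (chromosome 17, minus strand, 81878425 to 81881106) had 17.9, 18.4, 23.6 and 21.0 CPM across the shScramble samples and 15.6, 14.4, 16.8 and 16.1 CPM across the shIER5L samples. Its log2 fold change of -0.36 (SE 0.0980) barely passed, with an adjusted p of 0.0497 that rose above 0.05 in 7 of those 8 reduced fits, up to 0.192. The gene ENSG00000263859 on the other strand shares 29.2% of its exon bases. Neither gene overlapped between the conditions, but only OIP5-AS1 and C2orf74-DT of the 7 stayed called with each of the 8 samples left out.

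**Figure D3:**
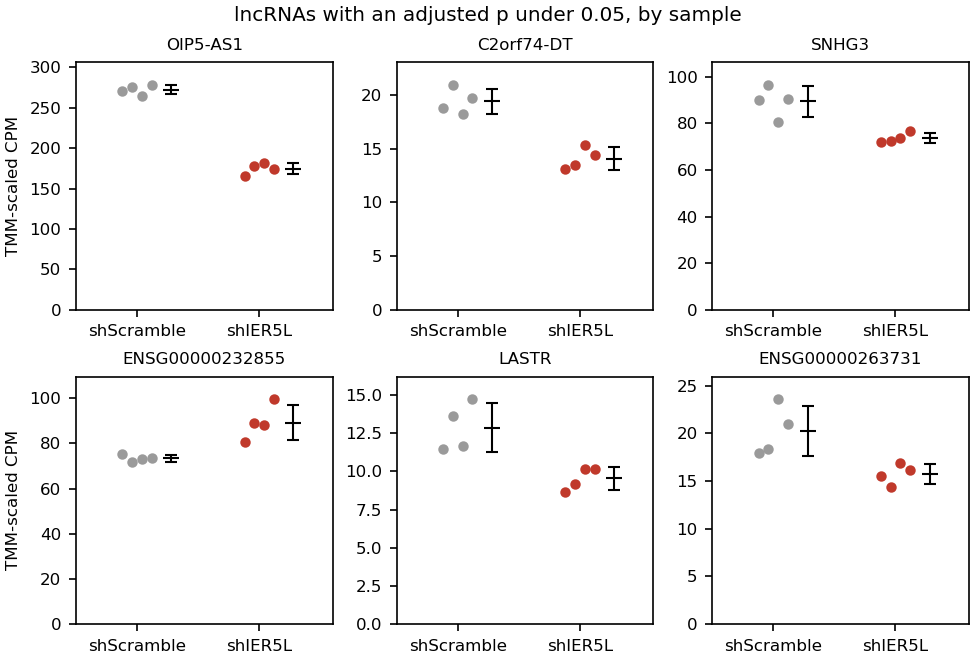
TMM-scaled CPM of 6 of the 7 called lncRNAs, by sample, in the 4 shScramble and 4 shIER5L samples, with the mean and SD beside the points and axes that start at 0. The conditions do not overlap in any panel, and the gap is widest for OIP5-AS1, from 265 down to 182 CPM.

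Across the 179, the fold changes leaned downward by a small amount. The median log2 fold change was -0.06, with 115 (64.2%) below 0 and 64 above. It was also -0.06 in the 2258 other lncRNAs tested, of which 58.5% were lower, while the median was 0.02 in protein-coding genes with at least 10 CPM, of which 43.8% were lower, and 0.00 over all genes tested, of which 49.4% were lower. Against the mean of the shScramble samples, the median member differed by -0.09, -0.03, -0.05 and -0.04 across the shIER5L samples, so each silenced sample leaned the same way, replicate 1 the most. The share of all counts that fell on the members was 1.06%, 1.03%, 0.996% and 1.06% across the shScramble samples and 0.935%, 0.992%, 0.989% and 0.988% across the shIER5L samples. The highest silenced sample lay just under the lowest control sample. Without MALAT1 the conditions overlapped, as the share was 0.731% in shIER5L replicate 4 and 0.726% in shScramble replicate 3.

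At an unadjusted p under 0.05 the same lean was seen: 35 lncRNAs (19.6%) were lower, against 6.78% of all genes tested, and 10 were higher, against 9.69%. All 4 shIER5L samples lay below all 4 shScramble samples for 22 members, or 12.3%, against 4.61% of all genes tested, and above them for 6, against 6.33%. Most of these differences were smaller than what the adjusted test could call: the median standard error of the members was 0.0902 on the log2 scale. In bulk samples a lower share of an RNA per cell and fewer cells that hold it cannot be told apart.

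The 26 hosts of snoRNAs had a median log2 fold change of -0.07. There were 19 lower and 7 higher, with a range from -0.30 to 0.21. SNHG3 was the only one called (3.85% of the 26, against 3.93% of all genes tested). Beside it, 6 were lower at an unadjusted p under 0.05 without passing the adjusted test: SNHG1 (-0.14, adjusted p = 0.235), SNHG29 (-0.11, adjusted p = 0.179), SNHG7 (-0.18, adjusted p = 0.111), SNHG4 (-0.30, adjusted p = 0.0862), SNHG10 (-0.18, adjusted p = 0.286) and TMEM161B-DT (-0.19, adjusted p = 0.210). With SNHG3 these were 26.9% of the hosts, against 19.6% of all members and 6.78% of all genes tested. One, ENSG00000261069, which lies in the SNHG14 locus around copies of SNORD116, was on the other side (0.21, adjusted p = 0.267). Of the most abundant hosts, SNHG16 was at 0.07 and SNHG8 at 0.00, and the sign of the latter changed with the scaling. GENCODE v44 lists no snoRNA gene within GAS5, the classic host, where RefSeq lists 11, and GAS5 had a log2 fold change of -0.05 (adjusted p = 0.669).

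SNHG4 had 18.0, 17.7, 17.3 and 16.3 CPM across the shScramble samples and 13.2, 13.5, 13.3 and 16.3 CPM across the shIER5L samples. Of the silenced samples, replicate 4 alone reached the control range. Without it the log2 fold change was -0.38 with an adjusted p of 0.0285 by edgeR's quasi-likelihood test. In the 7 other fits with 1 sample left out, the adjusted p stayed above 0.05, up to 0.215. SNHG4 lies inside MATR3 on the same strand and shares 555 exon bases with it, where reads were not assigned. SNHG7, host of SNORA17A and SNORA17B, had 52.6, 51.3, 56.1 and 49.5 CPM across the shScramble samples and 44.6, 48.7, 46.1 and 44.9 CPM across the shIER5L samples. Its conditions did not overlap, while DIPK1B on the other strand shares 25.2% of its exon bases.

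Many snoRNA hosts begin with a C and a run of pyrimidines, the terminal oligopyrimidine start that ribosomal protein mRNAs also carry. The RefSeq starts (GRCh38.p14) were searched for a C followed by at least 4 pyrimidines. It was found in 5 of the 22 hosts with an entry (22.7%) and in 5 of the 101 other members with an entry (4.95%). Over all 27305 genes of that table the share was 5.14%. Hosts here are those of GENCODE v44. RefSeq lists snoRNAs within the span of 4 further members, GAS5 among them. Where these have an entry, they count with the other members. The first 20 bases of the 5 hosts follow, 5′ to 3′, with the leading pyrimidine run in capitals, because they show how much this run varies among hosts of similar function.
SNHG32 (chr6:31834916-31834935, plus strand): CTTTTTgcgaagtgggctcg
ZFAS1 (chr20:49278642-49278661, plus strand): CTTTCgcgtctgcggtgccc
SNHG5 (chr6:85678714-85678733, minus strand): CTTTTacgtcggccttcgcg
SNHG4 (chr5:139274101-139274120, plus strand): CCCTTTCCCCTCCggcctct
SNHG12 (chr1:28581854-28581873, minus strand): CCTTTCTCCCCgccgcattc
The log2 fold changes of these 5 were -0.09 for SNHG32, 0.06 for ZFAS1, -0.07 for SNHG5, -0.30 for SNHG4 and -0.10 for SNHG12, none of them called. The RefSeq start of SNHG3, the host that was called, begins with G and does not match.

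The 14 hosts of miRNAs had a median log2 fold change of -0.05, with 10 lower and 4 higher. None was called by the quasi-likelihood test, the likelihood ratio test, limma voom or DESeq2. RefSeq gives mature sequences for miRNAs of 12 of these hosts. Mature miRNAs are too short for these libraries, so what was measured is the host transcript that remains after or beside their excision. Selected mature miRNAs of 3 well-known clusters follow with the seed, bases 2 to 8 from the 5′ end, in capitals. The seed sets which mRNAs a miRNA pairs with.
miR-17-5p (MIR17HG): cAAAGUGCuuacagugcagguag
miR-20a-5p (MIR17HG): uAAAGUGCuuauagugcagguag
miR-221-3p (MIR222HG): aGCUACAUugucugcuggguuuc
miR-222-3p (MIR222HG): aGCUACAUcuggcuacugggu
miR-100-5p (MIR100HG): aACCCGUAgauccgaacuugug
miR-125b-5p (MIR100HG): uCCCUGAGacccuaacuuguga
let-7a-5p (MIR100HG): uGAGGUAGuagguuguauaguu
The pair shown from MIR17HG shares a seed, as does the pair shown from MIR222HG, whereas the 3 shown from MIR100HG have a seed each. Other miRNAs of MIR17HG, such as miR-18a-5p, have other seeds.

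MIR17HG, the precursor of the miR-17-92 cluster, had 54.0, 45.8, 46.3 and 53.7 CPM across the shScramble samples and 40.7, 40.3, 50.4 and 60.8 CPM across the shIER5L samples. The silenced samples ran from below to above all controls, and the log2 fold change was -0.06 (SE 0.110, adjusted p = 0.868). MIR222HG was at 33.4 ± 3.19 and 35.1 ± 6.29 CPM, and MIR100HG at 120 ± 11.4 and 117 ± 10.2 CPM (SD, n = 4 each, shScramble first). Both differed by less than their spread. At an unadjusted p under 0.05, PVT1, the neighbour of MYC that hosts several miRNAs, was at -0.15 (adjusted p = 0.215) and MIR23AHG, host of miR-24-2, at -0.26 (adjusted p = 0.285). NEAT1, within which 1 miRNA is annotated, ran from 531 to 636 CPM in shScramble and from 535 to 669 CPM in shIER5L samples, with a log2 fold change of 0.07 (adjusted p = 0.693). Of the 6 genes of miRNA processing, export and loading that were looked up (DROSHA, DGCR8, DICER1, XPO5, AGO1 and AGO2), DICER1 rose, with a log2 fold change of 0.28 (SE 0.0467, adjusted p = 0.00299), and the other 5 were not called. At an unadjusted p under 0.05, DGCR8, the cofactor of DROSHA, had a log2 fold change of -0.19 and XPO5, the nuclear export receptor of miRNA precursors, one of -0.14, while AGO2 was at 0.13.

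Divergent starts were those within 1000 bases of a protein-coding gene's start on the other strand, with or without overlap of the genes. They were found for 54 of the 179. Their median log2 fold change was -0.10, with 41 lower and 13 higher, against -0.04 for the other 125. C2orf74-DT was among the 2 that were called, both lower (3.70% of the 54, close to the 3.93% of all genes tested that were called). At an unadjusted p under 0.05, 15 of the 54 (27.8%) were lower and 0 higher, beside 20 of the other 125 lower and 10 higher, and against 6.78% of all genes tested lower and 9.69% higher. In 37 of the 54 some exon bases were also exon of a gene on the other strand. In 53 pairs in which both genes were tested, the lncRNA and its neighbour had the same sign in 24 and opposite signs in 29, and the median log2 fold change was -0.09 for the lncRNAs and 0.00 for the neighbours. One neighbour was called: GARS1, the glycyl-tRNA synthetase gene, rose (log2 fold change 0.23, adjusted p = 0.00550), while GARS1-DT was at -0.13 (adjusted p = 0.466). Among pairs that overlap by exons on opposite strands, 34 of 65 had the same sign, and USP54 (-0.25, adjusted p = 0.0109, opposite PPP3CB-AS1) and GARS1 were called among the partners. In no pair of either kind were both genes called.

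The 91 lncRNAs with exon overlap on the other strand had a median log2 fold change of -0.07 (65 lower, 2 called). The 88 without such overlap had one of -0.05 (50 lower, 5 called). The shares called were 2.20% and 5.68%, against 3.93% of all genes tested. Without any of the classes named so far, that is, no small RNA, overlap, divergent start or surrounding gene, 29 lncRNAs remained, with a median of 0.01, 14 lower and 15 higher. LASTR and ENSG00000232855 were the 2 called among them (6.90%). By level, the median was -0.06 for the 13 members of at least 100 CPM, -0.04 for the 36 between 30 and 100 CPM and -0.07 for the 130 under 30 CPM.

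Well-known lncRNAs of prostate cancer were looked up next. Of 32 names collected for this purpose, 30 matched a gene of the table, 16 had enough counts to be tested and 8 were members: MALAT1, NORAD, SNHG1, GAS5, NEAT1, DANCR, PVT1 and HOTTIP. None of the 16 was called by edgeR's quasi-likelihood test, its likelihood ratio test, limma voom or DESeq2, and the lowest adjusted p of the first was 0.159. PVT1, TUG1, SNHG1 and NORAD (4 of the 16) were lower at an unadjusted p under 0.05, and 0 were higher. The shares over all genes tested were 6.78% lower and 9.69% higher, and 19.6% of the 179 members were lower. NORAD, which keeps Pumilio proteins from their mRNA targets, had 755, 714, 715 and 738 CPM across the shScramble samples and 642, 666, 694 and 703 CPM across the shIER5L samples, without overlap, and its log2 fold change of -0.11 (SE 0.0404) missed the threshold with that adjusted p. HOTTIP, transcribed at the end of the HOXA cluster, was the weakest member of the list, at 11.1 ± 0.974 and 9.95 ± 0.150 CPM (SD, n = 4 each, shScramble first; log2 fold change -0.16, adjusted p = 0.456). TUG1 averaged 93.5 CPM but is typed as protein-coding in GENCODE v44 and so is no member. SCHLAP1, a lncRNA of aggressive prostate tumours, averaged 6.70 CPM, PCA3, the urine marker, 0.03 CPM, and PCGEM1 was listed at 0.

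Genes of proteins that work with these RNAs were read from the same fit. None of 11 paraspeckle proteins, 7 nuclear speckle proteins, 12 snoRNP proteins, 12 factors of nonsense-mediated decay or 3 NORAD partners was called by any of those 4 tests, and of these 45 genes only NOP56 had an unadjusted p under 0.05. All 12 snoRNP genes, which include FBL, NOP56, NOP58 and DKC1, had negative log2 fold changes, between -0.10 and -0.00 with a median of -0.03, and the lowest adjusted p among them was 0.167. LNCAROD, which ranked 3 by TPM, was the most abundant of those with higher values in all silenced samples, at 109, 105, 109 and 110 CPM across the shScramble samples and 111, 116, 124 and 124 CPM across the shIER5L samples (log2 fold change 0.14, SE 0.0492, adjusted p = 0.161). Its lowest silenced sample was less than 1 CPM above its highest control.

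The exons were read in hg38 for pieces of the sh2 IER5L sequence, because 2 heptamers of it, CATCTCA and ACATCTC, are known from an earlier analysis of these samples to occur often in mRNAs that were lower in shIER5L cells. The search was on the transcribed strand, and overlapping matches counted as 1 site. The hairpin sequence, as the study lists it, is shown with both heptamers in capitals, followed by sites in called lncRNAs with 10 bases on each side and the match in capitals.
sh2 IER5L: gacgcgtccaACATCTCAaac
OIP5-AS1 (chr15:41286053-41286079, plus strand): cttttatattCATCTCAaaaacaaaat
OIP5-AS1 (chr15:41298222-41298248, plus strand): tatcctgctaACATCTCcaggaagaaa
OIP5-AS1 (chr15:41299634-41299660, plus strand): gagtattggaACATCTCtgtgttttcc
C2orf74-DT (chr2:61143620-61143646, minus strand): tccctccaaaACATCTCgtgtgtctgg
ENSG00000263731 (chr17:81879896-81879922, minus strand): cgtgatctccCATCTCAgcctcctgag
The longest run that OIP5-AS1 shares with the hairpin is 9 bases, at the first of these sites, and that of C2orf74-DT is 8 bases. Runs of this length were common: among all lncRNA members, the longest was 8 bases in 42, 9 bases in 31 and 10 bases in 4. Log2 fold changes of the 4 with 10 bases were 0.30 for LINC00839, 0.01 for MIR4435-2HG, -0.17 for TRHDE-AS1 and -0.12 for POC1B-AS1. None of these 4 was called. A further CATCTCA site in ENSG00000263731, at chr17:81880395-81880421, is not shown. SNHG3, LASTR and ENSG00000232855 hold neither heptamer.

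At least 1 site was found in 72 of the 179 lncRNAs (40.2%) and in 25.1% of the 2258 other lncRNAs tested, which are shorter. The median log2 fold change was -0.09 in the 72 with a site, of which 56 were lower, and -0.03 in the 107 without, of which 59 were lower. Of the 6 lncRNAs called lower, 3 had a site and 3 did not. Length differed between the groups, with medians of 5616 and 2711 exon bases, so the comparison was repeated by length. Above 2500 and up to 5000 bases the median was -0.16 in 25 with a site and -0.00 in 39 without. Over 5000 bases the order was the other way, -0.07 in 42 with a site and -0.11 in 18 without. Up to 2500 bases there were 5 lncRNAs with a site, with a median of -0.11, against -0.03 in 50 without. The share with a site was 9.09%, 39.1% and 70.0% from the shortest to the longest bin of members and 16.3%, 38.6% and 65.5% in the other lncRNAs tested, so members held sites about as often as other lncRNAs of like length in the upper bins. In those other lncRNAs the medians were -0.06 with a site and -0.07 without. A match is a run of letters and not evidence of pairing, and a part of the hairpin in these differences was not tested.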

How the data were processed

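RNA of 4 shScramble and 4 shIER5L samples of PC3 cells was sequenced. The authors deposited 1 table of raw counts per Ensembl gene, without normalization. According to the labels, the paper and the table's header, reads were aligned to hg38 with STAR 2.7.5c, cleared of duplicates (SAMtools 1.15) and assigned to exons by featureCounts 2.0.3 as primary alignments, unstranded and with the reads of a pair counted singly: a median of 65.6% of counts from 1 to 20 were even, so fragments are fewer than counts. The GENCODE release of the counting is not given in the sources used here.

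Gene types and positions came from GENCODE v44, matched by identifier for 56948 of 58051 genes. Of the 1103 without a match, 15 had at least 10 CPM and could not be typed. Counts passing filterByExpr were scaled by TMM and tested with edgeR 4.0.16 (glmQLFTest, R 4.3.3), with Benjamini-Hochberg adjustment over 16959 genes. The SE is the size of the log2 fold change over the square root of F. The median standard error over all genes tested was 0.109 on the log2 scale. Alternatives used limma 3.58.1 and DESeq2 1.42.0, and sequences were read with pysam 0.24.0. On simulated counts for 16638 genes the test recovered 183 of 200 genes changed by 1 on the log2 scale, with 14 false calls. The log2 fold changes of the members ran only from -0.64 to 0.30, and recovery of changes that small was not simulated.

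Named were every member called (1 is not reported here), hosts and prostate cancer lncRNAs at an unadjusted p under 0.05, the 10 highest by TPM, those nearest to the minimum, and partners of called members. LNCAROD, GAS5, HELLPAR, KCNQ1OT1 and the divergent or antisense partners that were called are also named, after their values were seen. The members, lists and heptamers were chosen with earlier results of these data known. Replicates are separate biological replicates per the labels, and each pair within a condition differed by more than sampling noise (chi-square per degree of freedom of at least 2.81).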

Additional observations from a re-analysis of the deposited data

Results flagged for a closer look

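Within each condition, a sample was singled out where the gap to its nearest neighbour took up most of the range of the 4 (Dixon's ratio above its critical value for 4 samples). This was checked in 52 groups of 4 samples, and it was met in 4, where chance gives about 1 in 20. SNHG4 in shIER5L replicate 4 had 16.3 CPM, while the other silenced samples had 13.2 to 13.5. SNHG8 in shIER5L replicate 4 was at 64.5 CPM, against 72.7 to 74.0. FGD5-AS1 in shIER5L replicate 3 was at 225 CPM, against 211 to 212. The share of all counts on the lncRNA members was 0.935% in shIER5L replicate 1, against 0.988% to 0.992%. The causes were not tested.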

How the results depend on the processing

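The median log2 fold change of the lncRNAs stayed between -0.08 and -0.04 under the other scalings and filters, with each sample left out and in the other member sets, and was not recomputed for the other alternatives. The number called at an adjusted p under 0.05, 7 as reported, was 14 with DESeq2, 11 with the likelihood ratio test, 12 without a filter on low counts (all including the 7), 4 with lncRNA genes tested alone, 14 at a minimum of 5 CPM (349 genes), 4 at 20 CPM (79 genes), 3 outside other gene spans (62 genes), and 2 to 9 with each sample left out. The 1 DEG became 0 with glmTreat, 0 without antisense exon overlap or outside other gene spans, where OIP5-AS1 is not a member, 3 at 5 CPM, and 1 to 2 with each sample left out. The causes were not tested, apart from the smaller or larger sets. SNHG8 had log2 fold changes of -0.00303 with DESeq2, -0.00302 with RLE scaling, -0.000419 with counts halved, -0.00166 at a mean CPM of at least 1, -0.00873 without a filter, -0.0122 with total counts only, -0.0128 with upper quartile scaling, and -0.0156 to 0.0471 with each sample left out. FGD5-AS1 ran from -0.0521 to 0.00259 in those fits. Same-numbered samples did not deviate together (correlations of -0.05, 0.10, -0.04 and 0.14). With the replicate number as a block, 7 lncRNAs and 1 DEG were called, the same genes as without it. Depth limits what can be seen: near 10 CPM, with a standard error near 0.1, changes well above 0.1 can also stay uncalled. TMCC1-DT (10.4 CPM) had a log2 fold change of -0.27 (SE 0.101) with an adjusted p of 0.166 by edgeR's quasi-likelihood test.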
